A study of Homo sapiens with 2 samples.

Results

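Cell cycle control genes were examined for promoter peaks of PRMT6 and PARP1 in MDA-MB-231 cells, for which no treatment is named. The set holds 60 genes of the 19719 protein-coding genes with a known strand. They were chosen by name for their role, with earlier results of these data known. It was divided by phase into 26 genes of G1 and its inhibitors, 11 genes of replication licensing and 23 genes of mitosis. A gene was counted when a listed peak had any base less than 3 kb away from the 5′ end of its RefSeq record in GRCh38.

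The study profiled genome binding with 1 library for PRMT6 and 1 library for PARP1, and GEO's labels name no treatment. MDA-MB-231 is an established triple-negative breast cancer line, so all values come from a single line. PRMT6 is an arginine methyltransferase that modifies histones, and PARP1 is a poly(ADP-ribose) polymerase that acts in DNA repair and at chromatin. The phases are those in which the genes act, since the labels name no arrest or sorting of the cells.

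In G1, cyclin D with CDK4 or CDK6 and then cyclin E with CDK2 phosphorylate the pocket proteins, which releases E2F factors to activate S phase genes. CDK inhibitors hold these kinases back. In the same phase ORC1, CDC6 and CDT1 load the MCM2 to MCM7 helicase on replication origins, which is called licensing. Entry into mitosis depends on CDK1 with cyclins A and B, and exit depends on the anaphase-promoting complex. E2F sites are known in promoters of licensing genes, while CHR elements, often with CCAAT boxes, are known in promoters of mitotic genes.

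Of the 60 genes, 19 had a PRMT6 promoter peak, which is 31.7% (95% exact binomial interval 20.3 to 45.0), against 18.3% of all protein-coding genes. A PARP1 promoter peak was listed at 25 genes, which is 41.7% (29.1 to 55.1), against 22.5% of all protein-coding genes. Both lists marked 16 genes, 26.7% (16.1 to 39.7), against 13.4%, and at 15 of them the peaks overlapped by at least 1 bp, 25.0% against 12.9%. At 9 genes, 15.0%, the PARP1 list alone had a promoter peak, at 3 genes, 5.0%, the PRMT6 list alone, and at 32 genes neither list had one. Over all 19719 protein-coding genes, 4430 had a PARP1 peak and 3600 a PRMT6 peak, and 2637 of these had both. Counts in 1 list alone are to be read beside these numbers. Each antibody had a single library, so there was no replicate check and no test was made. The intervals take genes as independent draws and reflect counting error alone.

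Most of these promoters are CpG-rich, and peaks were more frequent at such promoters across the genome. A promoter sequence of 250 bases before to 50 after the start was held for 47 of the 60 genes, and 44 of the 47 had an observed over expected CpG number of at least 0.6. Among all 10388 protein-coding genes with such a sequence, 25.9% had a PRMT6 peak, 31.4% a PARP1 peak and 19.3% both. The 44 cell cycle genes had 29.5% (16.8 to 45.2), 40.9% (26.3 to 56.8) and 25.0% (13.2 to 40.3). All 3 intervals hold the share of CpG-rich genes, so an excess beyond that share was not detectable with this number of genes.

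Among these 60 genes the licensing class had the highest share in both lists, an order that did not recur in a second list of cell cycle genes. PARP1 promoter peaks were listed at 8 of 11 licensing genes, 72.7% (39.0 to 94.0), at 10 of 23 mitosis genes, 43.5% (23.2 to 65.5), and at 7 of 26 genes of G1 and its inhibitors, 26.9% (11.6 to 47.8). PRMT6 promoter peaks were listed at 5 of 11 licensing genes, 45.5% (16.7 to 76.6), at 7 of 23 mitosis genes, 30.4% (13.2 to 52.9), and at 7 of 26 genes of G1 and its inhibitors, 26.9% (11.6 to 47.8). The intervals of the 3 classes overlap one another in each list. Of the 6 intervals, those for PARP1 at licensing and at mitosis genes began above the 22.5% of all genes. The licensing one also began above the 31.4% of CpG-rich genes, but the sets differ. A promoter sequence was held for 9 of the 11 licensing genes and not for MCM4 and MCM5, which both had a PARP1 peak. An excess over CpG-rich genes is therefore not shown for this class. For the G1 class, 26.9% lay close to the share of all genes in the PARP1 list, and above it in the PRMT6 list with an interval that holds it.

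**Figure D1:**
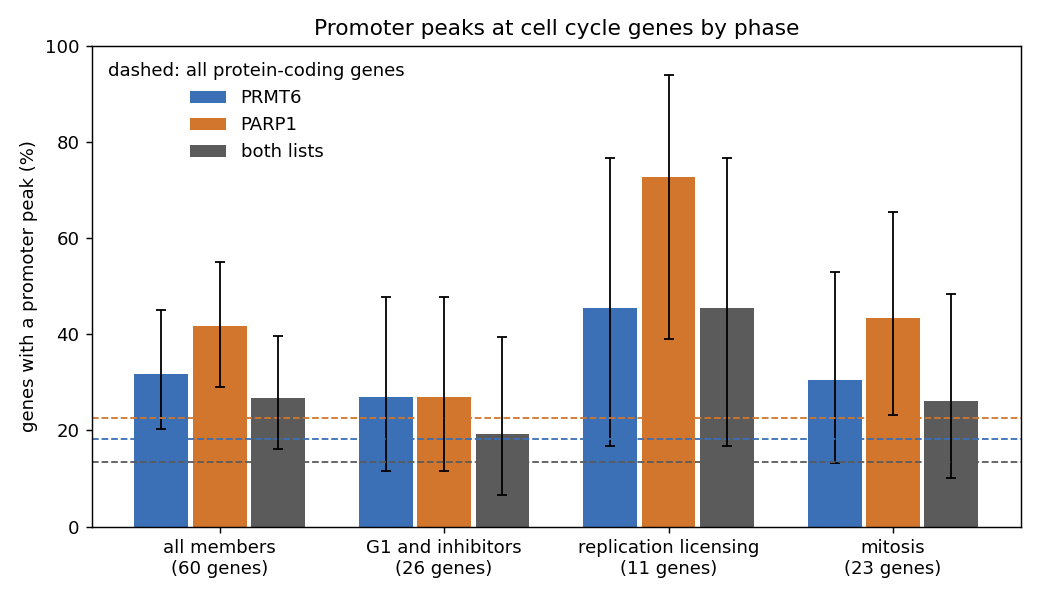
Bars give the percentage of cell cycle genes with a promoter peak of PRMT6, of PARP1 or of both, for all 60 genes and for each phase; error bars are 95% exact binomial intervals and dashed lines the share of all protein-coding genes in the same colour. The PARP1 bar of the licensing genes, at 72.7%, is the one whose interval lies farthest above its line.

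All 6 licensing promoters with both a promoter peak and a sequence at hand held E2F letters, and they are printed here to show where those letters lie. Sequences are from RefSeq, assembly GRCh38.p14, 5′ to 3′ on the strand of the gene. The letters searched were TTTCGCGC, TTTGGCGC, TTTCCCGC and TTTGCCGC on both strands, and matches may overlap each other. Capitals mark the matches. CDT1, which had no promoter peak, is shown for contrast.

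MCM2, chr3:127598261-127598460, plus strand: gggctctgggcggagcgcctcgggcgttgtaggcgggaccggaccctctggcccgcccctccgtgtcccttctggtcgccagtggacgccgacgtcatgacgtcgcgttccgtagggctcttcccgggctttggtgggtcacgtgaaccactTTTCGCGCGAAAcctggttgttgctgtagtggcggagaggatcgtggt
MCM3, chr6:52284693-52284992, minus strand: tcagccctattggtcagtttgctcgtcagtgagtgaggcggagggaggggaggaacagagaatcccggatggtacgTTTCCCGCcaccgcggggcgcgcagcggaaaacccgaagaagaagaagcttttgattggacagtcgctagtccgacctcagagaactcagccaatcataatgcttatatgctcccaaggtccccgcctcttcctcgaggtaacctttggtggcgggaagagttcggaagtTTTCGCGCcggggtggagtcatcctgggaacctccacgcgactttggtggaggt
MCM6, chr2:135876394-135876693, minus strand: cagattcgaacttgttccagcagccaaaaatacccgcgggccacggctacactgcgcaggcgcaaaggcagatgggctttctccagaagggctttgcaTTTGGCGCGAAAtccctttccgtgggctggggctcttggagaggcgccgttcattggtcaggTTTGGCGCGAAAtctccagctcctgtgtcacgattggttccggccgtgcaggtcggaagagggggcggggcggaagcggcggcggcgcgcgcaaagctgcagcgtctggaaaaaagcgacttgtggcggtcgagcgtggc
MCM7, chr7:100101348-100101647, minus strand: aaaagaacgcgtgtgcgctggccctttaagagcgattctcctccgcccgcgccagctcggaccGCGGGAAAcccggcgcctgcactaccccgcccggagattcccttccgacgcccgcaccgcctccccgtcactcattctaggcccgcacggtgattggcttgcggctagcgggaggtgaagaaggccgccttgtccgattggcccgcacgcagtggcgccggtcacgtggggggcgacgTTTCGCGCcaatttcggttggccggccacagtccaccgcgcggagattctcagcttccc
CDC6, chr17:40287729-40287928, plus strand: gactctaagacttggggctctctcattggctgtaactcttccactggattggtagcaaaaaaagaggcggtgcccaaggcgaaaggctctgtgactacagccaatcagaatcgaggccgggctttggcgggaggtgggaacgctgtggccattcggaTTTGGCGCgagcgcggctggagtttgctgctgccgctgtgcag
PCNA, chr20:5126573-5126772, minus strand: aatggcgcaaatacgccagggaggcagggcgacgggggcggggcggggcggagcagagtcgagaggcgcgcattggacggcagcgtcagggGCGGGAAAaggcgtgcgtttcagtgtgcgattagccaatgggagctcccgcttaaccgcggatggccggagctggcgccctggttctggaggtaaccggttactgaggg
CDT1, chr16:88803639-88803838, plus strand: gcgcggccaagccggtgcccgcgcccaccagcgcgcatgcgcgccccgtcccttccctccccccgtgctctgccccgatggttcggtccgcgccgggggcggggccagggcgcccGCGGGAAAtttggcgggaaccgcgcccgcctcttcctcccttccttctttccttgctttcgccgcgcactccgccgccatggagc

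An E2F match stood in 7 of 9 licensing promoters, 77.8%, in 6 of 20 promoters of G1 and its inhibitors, 30.0%, and in 1 of 18 mitotic promoters, 5.56%. Over all 15843 promoter sequences the share was 4.44%. In MCM2 and MCM6 the letters form a run in which matches on the 2 strands overlap, once in MCM2 and at 2 places in MCM6. The remaining licensing promoters with a sequence, ORC1 and GMNN, held no match and no promoter peak. A match is a description of letters and does not show that an E2F protein bound there.

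The 14 genes with an E2F match were E2F1, E2F2, E2F3, TFDP1, RBL1, CDC25A, CDK1 and the 7 licensing genes. Of these, 10 had a promoter peak. The 4 without were E2F1, E2F2, RBL1 and CDT1. In shares, a match stood in 10 of 22 cell cycle promoters with a peak, 45.5%, and in 4 of 25 without, 16.0%, while across all genes it stood in 6.36% of promoters with a peak and 3.66% without. The class of the gene moves with both the match and the peak, and their parts were not separated.

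PARP1 peaks covered 15 of the 22 E2F matches, in 10 genes, and PRMT6 peaks covered 7, in 7 genes. In MCM6 all 4 matches lay under the PARP1 peak. In MCM3 both peaks covered the match that begins 174 bases before the start and ended short of the match that begins 4 bases before it. In CDC6 the match that begins 7 bases after the start lay under both peaks.

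All 6 genes of the MCM helicase had a PARP1 promoter peak, and 3 of them, MCM3, MCM4 and MCM7, also had a PRMT6 one. Scores were read from their values as the −log10 p-value of the authors' peak caller. Each is placed within its own list by a percentile, because the scores of 2 libraries share no scale. The percentile is taken from the position of the score in its list, counted from the lowest up, with tied scores given their mean position. At MCM3 the PARP1 peak scored 12.89 (rank 1022 of 11651, percentile 91.2) and the PRMT6 peak 9.38 (rank 1284 of 9080, percentile 85.8). At MCM4 the PARP1 peak scored 8.03 (percentile 69.1) and the PRMT6 peak 6.46 (percentile 66.1). Both MCM4 peaks spanned the 5′ end, and PRKDC, the catalytic subunit of a DNA repair kinase, starts within 1 kb of them, so they cannot be assigned to one gene alone.

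MCM7 differed from the other helicase genes in the position of its PRMT6 peak. The PARP1 list had a peak at the MCM7 5′ end with a score of 12.90 (rank 1012) and another 1852 bp upstream with a score of 12.41 (rank 1146). The PRMT6 list had none at the 5′ end, and its peak of score 6.48 (rank 3020) lay 1817 bp upstream, where it overlapped the second PARP1 peak by 267 bp. That upstream place lies within the record of AP4M1, an adaptor complex subunit whose 5′ end lies within 1 kb of the first PARP1 peak. The PRMT6 call at MCM7 was therefore lost with a window of 1 kb.

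MCM2, MCM5 and MCM6 had a PARP1 peak alone, and TPRA1 starts within 1 kb of the MCM2 one. The MCM2 and MCM6 peaks had the same score of 5.26 and the same percentile of 26.7, and the MCM5 peak scored 6.87, percentile 56.3, with the smallest width in the list, 200 bp. These are lower in the list than the PARP1 peaks of MCM3, MCM4 and MCM7, whose lowest percentile was 69.1. In the higher-scoring 50% of each list, 4 of the 6 helicase genes kept a PARP1 peak and all 3 kept a PRMT6 peak.

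CDC6, the factor that loads the helicase with CDT1, had some of the strongest peaks of the licensing class. Its PRMT6 peak scored 11.29 (rank 803, percentile 91.1) and its PARP1 peak 13.44 (rank 917, percentile 92.1). The 2 peaks had the same centre, 121 bp upstream of the 5′ end, and shared 400 bp. PCNA, the sliding clamp of DNA polymerases, had a PRMT6 peak of score 9.17 (percentile 84.9) and a PARP1 peak of score 12.45 (percentile 90.2), with centres 158 bp apart. CDS2 starts within 1 kb of both, so they cannot be assigned to one gene alone. A second RefSeq start of PCNA, 6664 bp inside the record, also lay under a peak of each list, of rank 1446 for PRMT6 and 1432 for PARP1.

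ORC1, CDT1 and the licensing inhibitor GMNN were marked by neither list. At ORC1 the nearest peaks lay 42986 bp (PRMT6) and 43074 bp (PARP1) downstream of the 5′ end. At CDT1 the nearest PARP1 peak lay 29481 bp upstream and the nearest PRMT6 peak 53174 bp downstream. GMNN held a PRMT6 peak 6841 bp inside its record, rank 4835.

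**Figure D2:**
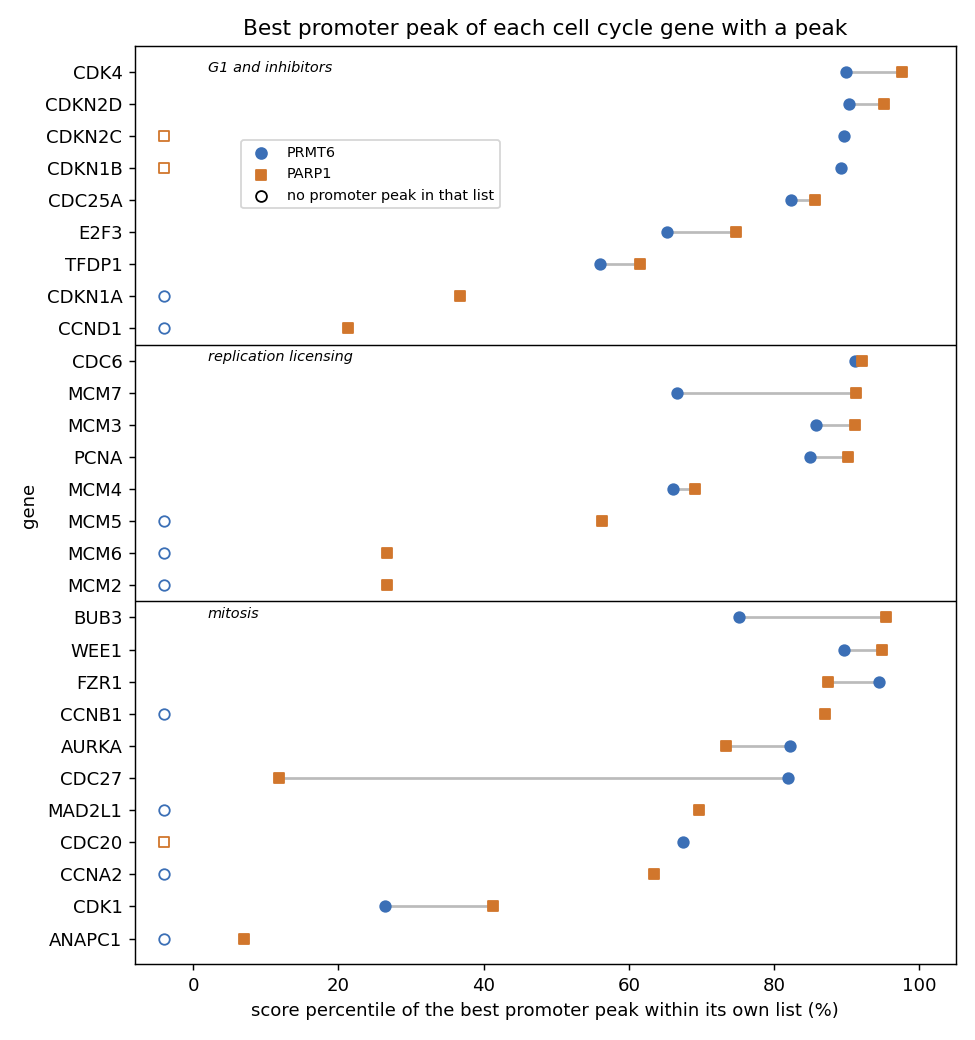
Each row is 1 of the 28 cell cycle genes with a promoter peak, and points give the score percentile of its best promoter peak within the PRMT6 list (circles) or the PARP1 list (squares), with open symbols at the left where that list had none. Points of the 16 genes in both lists mostly lie to the right, while CDC27 spans percentiles 11.8 and 81.9.

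Among the D-type cyclins and their kinases, CDK4 had the strongest PARP1 promoter peak of all 60 genes. Its PARP1 peak, 604 bp wide, scored 19.63 (rank 279, percentile 97.6), and its PRMT6 peak scored 10.68 (rank 913, percentile 89.9). The PRMT6 peak lay wholly within the PARP1 peak. CCND1, which encodes cyclin D1, had a PARP1 peak alone, 1897 bp upstream, with a score of 4.96 (percentile 21.3). CCND2, CCND3 and CDK6 had no promoter peak, and CCND3 held 2 PRMT6 peaks far inside its record, 42353 and 72949 bp from the 5′ end.

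In the cyclin E group, CDC25A, the phosphatase that activates CDK2, was the only gene of 5 with a promoter peak. Both lists marked it, at percentile 82.4 for PRMT6 and 85.7 for PARP1, with centres 4 bp apart. CCNE1, CCNE2, CDK2 and the CDK-activating kinase gene CDK7 had none. The nearest peaks to the CDK2 5′ end ranked 75 (PRMT6) and 96 (PARP1), but they lay 6624 and 6660 bp downstream, past the end of the CDK2 record.

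Of the 7 CDK inhibitor genes, 2 had a PRMT6 peak alone, 28.6% (3.67 to 71.0), as did 3 of all 60 genes, 5.0% (1.04 to 13.9). Over all 19719 protein-coding genes, 3600 had a PRMT6 peak, and 2637 of these also had a PARP1 peak. The interval of the inhibitors holds the 5.0%, so these 2 genes do not set the inhibitors apart. CDKN1B, which encodes an inhibitor of cyclin E with CDK2, had a PRMT6 peak across its 5′ end with a score of 10.47 (rank 976, percentile 89.2). CDKN2C, an inhibitor of CDK4 and CDK6, had a PRMT6 peak that ended 51 bp upstream, with a score of 10.66 (rank 928, percentile 89.7). Both are high in the list, and another gene starts within 1 kb of each, GPR19 at CDKN1B and FAF1 at CDKN2C. When each peak was given only to the nearest 5′ end, the CDKN2C call was lost. A further PRMT6 peak, rank 871, lay on another RefSeq start of CDKN2C, 9500 bp inside the record.

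CDKN2D, of the same INK4 family, was marked by both lists, at percentile 90.4 for PRMT6 and 95.2 for PARP1. CDKN1A, the inhibitor induced by p53, had a PARP1 peak alone, of score 5.66 (percentile 36.7), 1938 bp inside the record. That peak spans a second RefSeq start of CDKN1A at 2251 bp, and the noncoding gene DINOL starts within 1 kb of it. CDKN1C had no promoter peak, and its nearest peaks lay 47596 bp (PRMT6) and 27292 bp (PARP1) upstream.

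CDKN2A and CDKN2B lay in a stretch of chromosome 9 with no peak of either list over 4.91 Mb, from 20771116 to 25678497. The stretch holds the 5′ ends of 25 protein-coding genes, MTAP among them. The median distance between neighbouring peaks of the joined lists was 61.8 kb, and 20 of 16446 such distances were as long as this one or longer. MDA-MB-231 is known to lack this locus, so for these 2 genes the lack of a peak does not speak to binding. Without them, 19 of 58 genes had a PRMT6 peak and 25 of 58 a PARP1 peak.

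**Figure D3:**
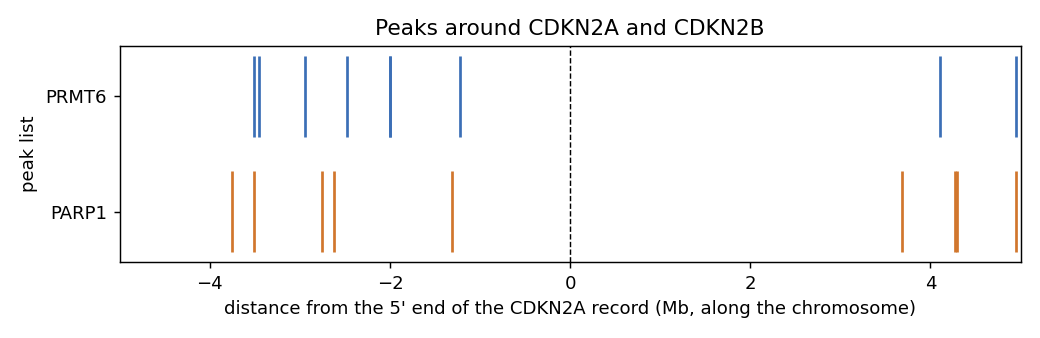
Each vertical line is a listed peak on chromosome 9 within 5 Mb of the CDKN2A 5′ end (dashed), with distance in Mb along the chromosome and 1 row per list. Neither row has a peak in the 4.91 Mb around CDKN2A, MTAP and CDKN2B.

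Among the 7 E2F and DP genes, E2F3, an activating E2F, and TFDP1, the DP partner of E2F proteins, had promoter peaks in both lists. At E2F3 the percentiles were 65.3 for PRMT6 and 74.8 for PARP1, and a second PARP1 peak (percentile 64.3) lay 1422 bp inside the record, 32 bp short of another RefSeq start. LOC124901482 starts within 1 kb of each of these E2F3 peaks. At TFDP1 they were 56.0 for PRMT6 and 61.5 for PARP1. E2F1 and E2F2 had none, with the nearest peaks 7699 bp upstream (PRMT6, at E2F1) and 8631 bp upstream (PARP1, at E2F2). E2F4, E2F5, E2F6 and the pocket protein genes RBL1 and RBL2 had none either, although E2F4 held a PRMT6 peak 6105 bp inside its record.

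The CHR element was the motif found mainly in the mitotic promoters. The CHR element, TTTGAA or TTCGAA on either strand, stood in 11 of 18 mitotic promoters, 61.1%, in 1 of 9 licensing promoters, 11.1%, in 2 of 20 of the G1 class, 10.0%, and in 13.6% of all promoters. Over the shorter window of 100 bases before to 50 after the start it stood in 9 of 18 mitotic promoters and in 0 of 9 licensing promoters. A CCAAT box, searched as CCAAT on both strands, stood in 13 of 18 mitotic promoters, 72.2%, in 6 of 9 licensing promoters, 66.7%, and in 5 of 20 of the G1 class, 25.0%, against 36.4% of all. Over the shorter window these were 44.4% of mitotic and 66.7% of licensing promoters, so the order of the 2 classes turned. Sequences of CCNB1, CDC20 and PLK1 are printed to show promoters with a PARP1 peak alone, a PRMT6 peak alone and no peak, with CHR and CCAAT matches in capitals. CCNB1 held no CHR match in this window.

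CCNB1, chr5:69167000-69167199, plus strand: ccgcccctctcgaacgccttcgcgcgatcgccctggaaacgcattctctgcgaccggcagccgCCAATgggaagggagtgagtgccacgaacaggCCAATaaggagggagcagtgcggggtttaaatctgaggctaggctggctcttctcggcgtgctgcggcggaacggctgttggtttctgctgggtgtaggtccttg
CDC20, chr1:43358731-43359030, plus strand: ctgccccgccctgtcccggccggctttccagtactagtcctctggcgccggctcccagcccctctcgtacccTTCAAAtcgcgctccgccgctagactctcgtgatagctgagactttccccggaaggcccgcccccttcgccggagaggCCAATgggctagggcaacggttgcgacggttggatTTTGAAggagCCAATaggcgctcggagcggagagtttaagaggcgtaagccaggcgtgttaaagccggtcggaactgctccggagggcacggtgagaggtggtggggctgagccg
PLK1, chr16:23678739-23678938, plus strand: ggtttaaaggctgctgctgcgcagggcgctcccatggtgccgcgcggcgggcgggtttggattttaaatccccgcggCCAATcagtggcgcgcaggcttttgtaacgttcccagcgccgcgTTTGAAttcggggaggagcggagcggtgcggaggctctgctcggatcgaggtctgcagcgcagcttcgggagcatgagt

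A CHR match stood in 7 of 22 cell cycle promoters with a peak, 31.8%, and in 7 of 25 without, 28.0%, against 11.2% and 14.5% over all genes. Over the shorter window it stood in 4 of 22 with a peak, 18.2%, and in 7 of 25 without, 28.0%, so the direction between the 2 groups turned. The 7 genes with a CHR match and no peak were CCNB2, CCNF, PLK1, BUB1, BUB1B, ESPL1 and RBL2. Of the 16 CHR matches, 3 lay under PRMT6 peaks and 3 under PARP1 peaks. A CCAAT box stood in 15 of 22 promoters with a peak, 68.2%, and in 9 of 25 without, 36.0%, against 43.9% and 33.3% over all genes.

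**Figure D4:**
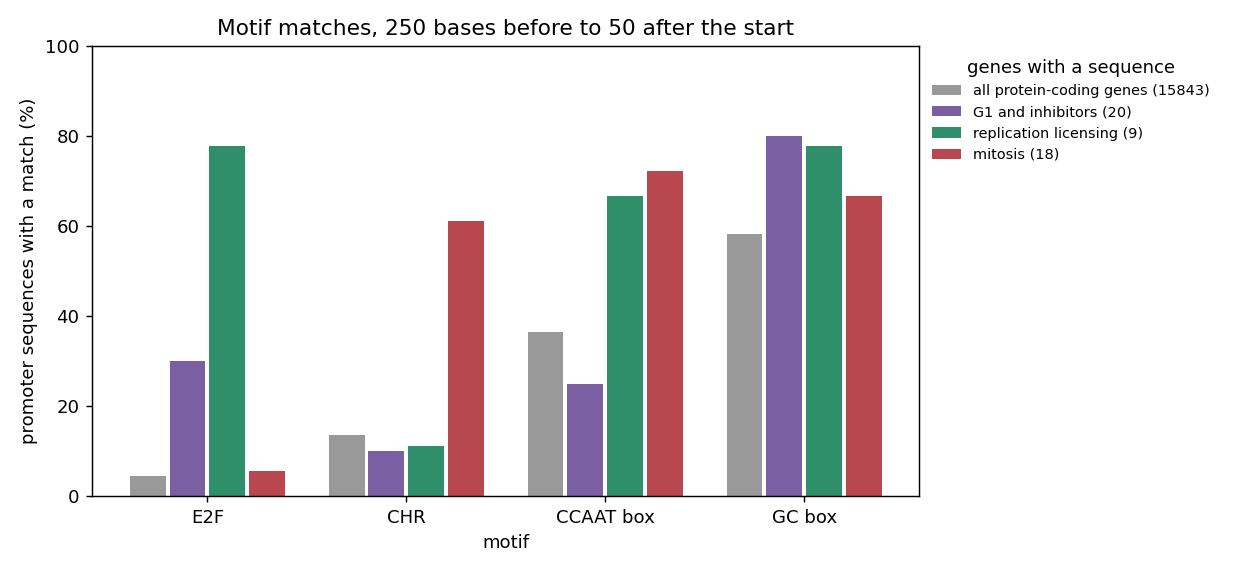
Bars give the percentage of promoter sequences, 250 bases before to 50 after the start, that hold each motif on either strand, for all protein-coding genes and for the 3 phases, with the number of sequences in the legend. E2F matches are most frequent in licensing promoters (77.8%) and CHR matches in mitotic promoters (61.1%).

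The GC box GGGCGG stood in 35 of 47 cell cycle promoters, 74.5%, against 58.3% of all. The ETS letters CCGGAAG stood in 4 of 47, 8.51%, against 14.2%, and the NRF1 core GCGCATGC in 3 of 47, 6.38%, against 4.28%. The cAMP response element TGACGTCA stood in 1 of 47, 2.13%, against 2.56% of all, and its shorter form TGACGT, which the full element contains, in 6 of 47, 12.8%, against 9.66%.

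Of the mitotic cyclins and their kinase, CDK1 had weak peaks in both lists, and CCNA2 and CCNB1 a PARP1 peak alone. At CDK1 the PRMT6 peak scored 4.68 (rank 6633, percentile 26.4), the lowest best score of a member in that list, and the PARP1 peak 5.93 (rank 6769, percentile 41.3). CCNB1, which encodes cyclin B1, had a PARP1 peak of score 11.28 (rank 1508, percentile 87.0) that covered both of its CCAAT boxes. CCNA2, which encodes cyclin A2, had one of score 7.46 (percentile 63.5). CCNB2 and CCNF had none, and their nearest peaks lay 171078 bp upstream (PARP1) and 30216 bp downstream (PRMT6).

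WEE1, the kinase that inhibits CDK1, ranked high in both lists. Its PRMT6 peak scored 10.66 (rank 928, percentile 89.7) and its PARP1 peak 15.66 (rank 592, percentile 94.9), and they shared 460 bp. PKMYT1, the related inhibitory kinase, had no promoter peak. CDC25B and CDC25C, phosphatases that activate CDK1, had none at the 5′ end of their records, but peaks lay at their other RefSeq starts. At CDC25C a start 6478 bp inside the record lay under a PRMT6 peak of score 8.42 (rank 1656) and a PARP1 peak of score 15.86 (rank 569), and the latter is among the highest PARP1 scores at any of these genes. At CDC25B a PARP1 peak of rank 9387 lay between starts at 8838 and 9359 bp.

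AURKA was the only mitotic kinase of 3 with promoter peaks. Its PRMT6 peak scored 8.53 (percentile 82.2) and its PARP1 peak 8.48 (percentile 73.4), and CSTF1, an RNA cleavage factor gene, starts within 1 kb of both. Neither list marked PLK1 or AURKB. The nearest peaks to PLK1 lay 82394 bp (PRMT6) and 121185 bp (PARP1) upstream, and those to AURKB 12200 bp upstream (PRMT6) and 22557 bp downstream (PARP1).

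The spindle checkpoint genes had 1 gene in both lists. BUB3, a checkpoint protein that docks at kinetochores, had a PARP1 peak of score 16.15 (rank 529, percentile 95.4), second to CDK4 among the 60 genes, and a PRMT6 peak of score 7.46 (percentile 75.2). MAD2L1, which holds back CDC20, had a PARP1 peak alone, of score 8.10 (percentile 69.7), and the divergent noncoding gene MAD2L1-DT starts within 1 kb of it. The kinase genes BUB1, BUB1B and TTK had no promoter peak. BUB1 lay just outside the rule, with a PARP1 peak 3186 bp inside its record, rank 6014.

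For the anaphase-promoting complex, FZR1, the activator used in late mitosis and G1, had the strongest PRMT6 peak of all 60 genes. That peak scored 13.29 (rank 504, percentile 94.4), and the PARP1 peak at the same promoter scored 11.43 (rank 1455, percentile 87.5). CDC20, the activator used at anaphase, had a PRMT6 peak alone, of score 6.61 (percentile 67.5), and its nearest PARP1 peak lay 55730 bp downstream. That PRMT6 peak had the smallest listed width, and the CDC20 call was lost without peaks of that width. CDC20-DT starts within 1 kb of the PRMT6 peak. The activators thus differed in whether a PARP1 peak was listed, with 1 library each.

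The subunit genes CDC27 and ANAPC1 had weak PARP1 peaks. At CDC27 the PRMT6 peak crossed the 5′ end with a score of 8.42 (percentile 81.9), while the PARP1 peak, of score 4.42 (rank 10178, percentile 11.8), lay 130 bp upstream and did not overlap it. This was the only gene of the 16 in both lists where the peaks did not overlap, and MYL4 starts within 1 kb of both. At ANAPC1 the PARP1 peak scored 4.20 (rank 10721, percentile 7.0), the lowest best score of a member in that list, at the smallest listed width. The securin gene PTTG1 and the separase gene ESPL1 had no promoter peak.

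Where both lists marked a promoter, the peaks mostly overlapped, at 93.8% of these genes against 96.3% over all genes. At CDC27, the exception, the centres lay 99 bp downstream (PRMT6) and 282 bp upstream (PARP1) of the 5′ end. Centres of the 15 overlapping pairs were 0 to 158 bp apart, and the shared stretch covered at least 79.5% of the narrower peak. Overlap itself limits how far apart the centres of such narrow peaks can lie. Of the members with a PRMT6 peak 84.2% also had a PARP1 peak, and of those with a PARP1 peak 64.0% also had a PRMT6 peak, against 73.2% and 59.5% over all genes. PARP1 peaks had the higher percentile at 13 of these 16 genes, and PRMT6 peaks at FZR1, AURKA and CDC27. This comparison was not made over all genes with both peaks, so whether 13 of 16 is more than usual is not known. The lists also differ in length and in their share of peaks of the smallest width.

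Peaks of these genes sat mostly just upstream of the 5′ end. Of 19 PRMT6 promoter peaks 17 had their centre upstream, 89.5% against 68.3% over all genes, with a median of 141 bp upstream against 107 bp. Of 27 PARP1 promoter peaks 24 did, 88.9% against 68.1%, with a median of 162 bp upstream against 104 bp. The exceptions to a place within 300 bp were MCM7 and CDKN2C for PRMT6, and CCND1, CDKN1A and the second peaks of MCM7 and E2F3 for PARP1. The genes whose call rests nearest to the 3 kb limit were CDKN1A (1938 bp), CCND1 (1897 bp) and the PRMT6 call at MCM7 (1817 bp), and those nearest outside it were BUB1 (3186 bp), E2F4 (6105 bp) and CDC25C (6127 bp).

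**Figure D5:**
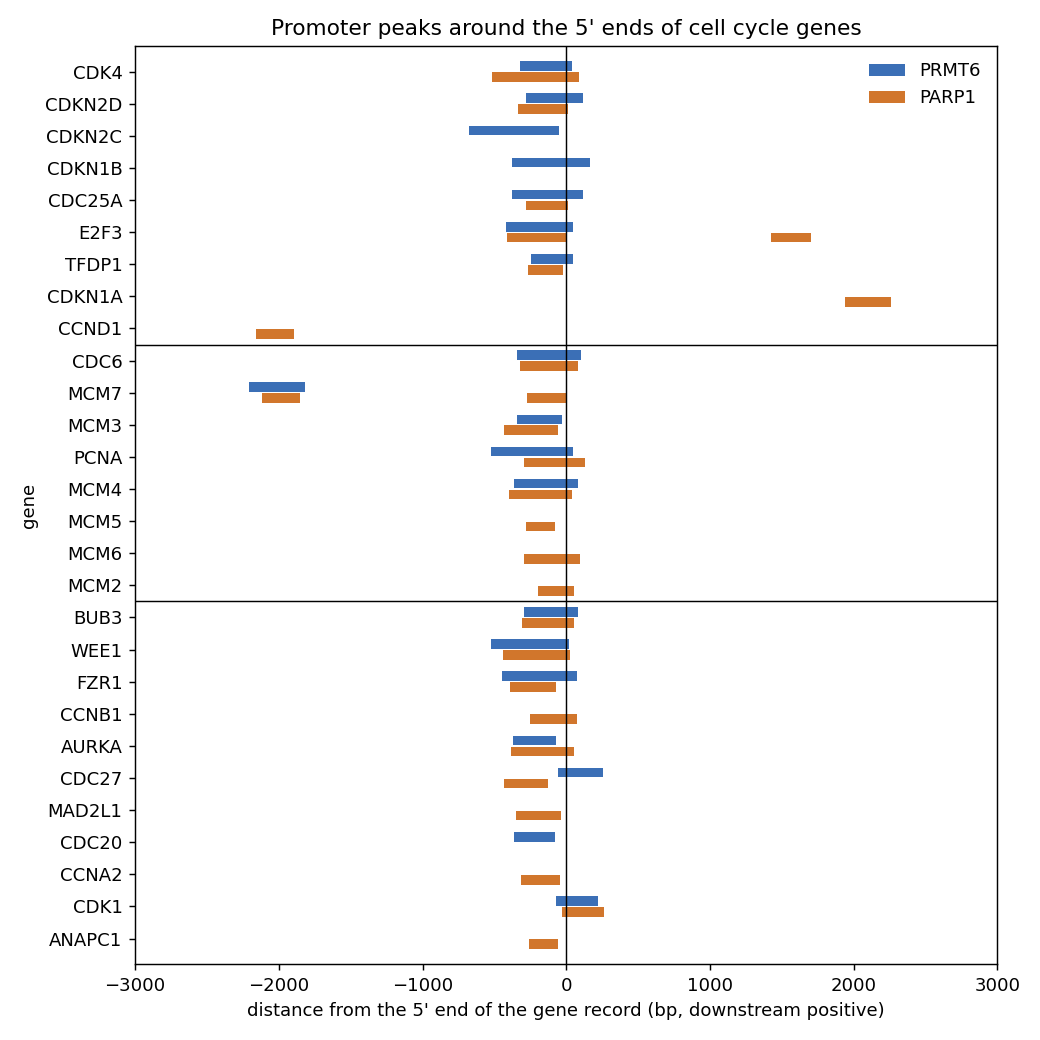
Bars show each promoter peak of the 28 genes to scale, by distance in bp from the 5′ end of the gene record with downstream to the right, for PRMT6 (upper bar) and PARP1 (lower bar). Most bars lie within 300 bp of the 5′ end or cross it, and those of CCND1, CDKN1A, the MCM7 upstream pair and the second E2F3 peak stand apart.

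Of the 32 genes without a promoter peak, 8 had a peak of either list within 10 kb of the 5′ end, and the median distance to the nearest peak was 37.4 kb. The 8 were BUB1, E2F4, CDC25C, CDK2, GMNN, E2F1, E2F2 and CDC25B. At the cyclin E genes the nearest peaks lay 32712 bp (CCNE1) and 42844 bp (CCNE2) downstream, both in the PRMT6 list. At RBL2, BUB1B and ESPL1 they lay 68789 bp downstream (PARP1), 64984 bp upstream (PRMT6) and 52990 bp downstream (PARP1). The farthest outside chromosome 9 was CDK6, with its nearest peak 176552 bp upstream in the PRMT6 list. At PKMYT1, RBL1, CDK7, CCND3, E2F5, CCND2, PTTG1, E2F6 and TTK the nearest peak of either list lay between 23445 bp (PKMYT1) and 101735 bp (TTK) away.

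Median scores of the promoter peaks at these genes were higher than over all promoter peaks. The median percentile of a gene's best PRMT6 peak was 82.4 over the 19 genes against 71.8 over the 3600 genes with one, and for PARP1 it was 73.4 over 25 genes against 62.1 over 4430. In the higher-scoring 50% of each list, 18 genes kept a PRMT6 peak and 18 a PARP1 peak. Inside the gene records and beyond the promoter, PRMT6 had 10 peaks in 9 of the 60 genes and PARP1 8 peaks in 8. Over all protein-coding genes 13.2% held such a PRMT6 peak and 14.6% such a PARP1 peak, so 9 and 8 of 60 lay near the share of all genes.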

How the data were processed

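Peak lists of 2 libraries were deposited, 1 per antibody. The study's methods describe CUT&Tag and peak calling with MACS, whereas the labels also give steps of a ligation-based preparation from precipitated chromatin. GEO's processing notes name CASAVA 1.4, Bowtie 0.12.8, MACS, MACS2 and hg19. Thresholds, a control library and read depth are not given in the sources used here. The authors deposited for each peak a position and a score read as −log10 of the p-value, from its values, with lowest scores of 3.09 (PRMT6, 9080 peaks) and 3.02 (PARP1, 11651 peaks). Of PRMT6 peaks 53.1% had the smallest width, 288 bp.

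The positions go with GRCh38 and not with hg19. The share of peaks no farther than 1 kb from any 5′ end was 34.5% (PRMT6) and 34.0% (PARP1) with GRCh38 records, against 8.02% and 7.8% with GRCh37 records. RefSeq GRCh38.p14 records were used, with the strand from the RefSeq promoter table for 15843 genes and from GENCODE for the rest, and 331 genes without a strand were left out. Positions are printed as listed, and whether starts count from 0 or 1 is unknown. Promoter sequences use the RefSeq start nearest the record's 5′ end.

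Overlaps, ranks, Clopper-Pearson intervals and motif matches were computed in Python 3.11.15 with numpy 2.4.6, pandas 2.3.3 and scipy 1.17.1, and the queries were tested on simulated data. No test was made. The members, lists and motifs were chosen with earlier results of these data known. All 60 genes were described, with values for each gene with a promoter peak. Of a second list of 60 cell cycle genes, those with both peaks and the best mean rank were named, at most 5 per class. Windows, peak subsets, assignment, overlap rules and start sites were varied.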

Additional observations from a re-analysis of the deposited data

How the results depend on the processing

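Counts of genes in each list, in both lists and with overlapping peaks, over all genes and by class, were recomputed with 11 other settings, which gave 137 values. These stayed within 1.5 times the count reported, but single genes changed, and the count with a PARP1 peak alone, added after seeing the data, moved from 9 to 4 in the higher-scoring 50% of each list. With windows of 1 kb, CCND1, CDKN1A and the PRMT6 call at MCM7 were lost. In the higher-scoring 50% of each list, CCND1, CDK1, CDKN1A, MCM2, MCM6, ANAPC1 and the PARP1 call at CDC27 were lost, which left 18 genes with a PRMT6 peak, 18 with a PARP1 peak and 14 with both. Without peaks of the smallest width, MCM5, CDC20, ANAPC1 and the PRMT6 calls at CDK1 and TFDP1 were lost. With each peak given to the nearest 5′ end, CDKN2C and 1 call each at AURKA and CDC27 were lost. With all RefSeq starts, an alternative chosen after seeing the data, CDC25B and CDC25C were gained. The counts per class and of the helicase in a single list were also added to these settings after seeing the data. Over 100 bases before to 50 after the start, NRF1 and ETS matches each fell to 1 gene, CHR matches at genes with a peak from 7 to 4 and CCAAT boxes in mitotic promoters from 13 to 8. Depth is unknown, so the lack of a listed peak does not show a lack of binding. No paired analysis was possible because there was a single library for either antibody.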

Other observations

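A second list of 60 cell cycle genes, of the same 3 phases, gave similar counts. It was written with earlier results of these data known, so it is not an independent repeat. PRMT6 promoter peaks stood at 21 of these genes, 35.0% (95% exact binomial interval 23.1 to 48.4), PARP1 peaks at 30 (36.8% to 63.2%), and both at 18, 30.0% (18.8 to 43.2). The shares of all protein-coding genes were 18.3%, 22.5% and 13.4%, and those of CpG-rich genes 25.9%, 31.4% and 19.3%. By phase the order differed from that of the first list: both peaks stood at 6 of 14 genes of G1 and its inhibitors, 42.9%, at 8 of 28 mitosis genes, 28.6%, and at 4 of 18 licensing genes, 22.2%. PARP1 peaks stood at 9 of 14 genes of G1 and its inhibitors, 64.3% (35.1 to 87.2), at 14 of 28 mitosis genes (30.6% to 69.4%) and at 7 of 18 licensing genes, 38.9% (17.3 to 64.3), which is the reverse of the order in the first list, with intervals that overlap.

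The best mean rank over both lists of cell cycle genes was at LIN52, a subunit of the DREAM complex that represses cell cycle genes in resting cells, with rank 73 for PRMT6 and 171 for PARP1. ALDH6A1 starts within 1 kb of both peaks, and the PRMT6 peak ended 21 bp upstream of the LIN52 5′ end, so they cannot be assigned to one gene alone. LIN37, another DREAM subunit, had a PRMT6 peak at its 5′ end of rank 1782 and a PARP1 peak of rank 1992 lying 28 bp upstream. The other 4 genes of the G1 class with both peaks were CKS1B, SKP2 and the DREAM subunits RBBP4 and LIN54. The PARP1 peak of LIN54 was low in its list. Not all DREAM subunits were marked. LIN9 had no promoter peak in either list, and neither had E2F4, E2F5, RBL1 and RBL2 of the first list of genes. TFDP1 of the first list of genes, the DP partner of E2F proteins, had promoter peaks of both PRMT6 and PARP1. Among licensing genes both lists marked GINS4, ORC6, MCM10 and CDC45, of which GINS4, a subunit of the GINS helicase complex, had the highest PRMT6 rank, 590. The PRMT6 peak of CDC45 was low in its list (rank 6633, percentile 26.4). Among mitosis genes the leading ones were UBE2C, CENPA, CKS2, FBXO5 and ANAPC5, and UBE2C, the ubiquitin-conjugating enzyme of the anaphase-promoting complex, had ranks 875 and 1683. The ANAPC5 peaks lay 1586 bp (PRMT6) and 1593 bp (PARP1) inside its record and not at its 5′ end. Another gene starts within 1 kb of peaks at CKS1B (SHC1), SKP2 (LMBRD2), RBBP4 (ZBTB8OS), ORC6 (VPS35), CDC45 (UFD1) and CKS2 (LOC105376136).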
